A study of Mus musculus with 8 samples.

Results

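Genes of the endoplasmic reticulum (ER) folding machinery and of collagen folding were followed in growth plate cartilage. The 31 genes were taken as a fixed list by function, with earlier results of these data already known. A gene counted as measured when 4 or more of the 8 arrays showed a probe of one of its RefSeq transcripts well above background. All 31 were measured, each on all 8 arrays, among 23105 features in all. Of their 49 probes 47 were kept. The 2 left out were another probe of P4ha3 and another of Dnajb11. The list holds 15 general chaperones, 10 collagen-modifying enzymes and chaperones, and 6 sensors and genes of ER-associated degradation.

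RNA came from the femoral growth plate of littermate mice at 12 days of age, 4 labelled CreTW and 4 labelled Cre, and 100 ng from each mouse was hybridised to a 1-colour Agilent array. What CreTW and Cre stand for is not given in the labels. From general knowledge of this study, Cre recombinase is driven in both groups by the type II collagen promoter, and CreTW mice also make mutant Twinkle, a helicase that copies mitochondrial DNA. That promoter is active in chondrocytes. Which other cells of the dissected tissue carry the active transgene was not measured here. In such bulk RNA, fewer cells of a type and less RNA per cell cannot be told apart.

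Chondrocytes secrete large amounts of collagen, which is folded and modified in the ER. BiP and its helpers bind unfolded chains, protein disulfide isomerases pair cysteines, and calnexin and calreticulin hold glycoproteins until they are folded. Prolyl and lysyl hydroxylases modify procollagen chains, and HSP47 holds the triple helix on its way to the Golgi. When unfolded protein builds up, the sensors IRE1, ATF6 and PERK switch on the unfolded protein response: XBP1 and ATF6 act on chaperone and degradation genes, and PERK acts through ATF4.

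The ER stress response element, through which ATF6 and XBP1 are known to act on chaperone genes, is shown first because it recurs among the chaperones of this list. RefSeq promoter windows on GRCm38.p6 (250 bases before to 50 after the start of the gene) were at hand for 26 of the 31 genes. The element was searched on both strands as CCAAT, any 9 bases, then CCACG. It was present in 39 of 32851 windows of all genes (0.119%), and in 7 of 26 windows of the list. All 7 were general chaperones (of 13 with a window). None of the 8 windows of collagen enzymes or the 5 of sensors and degradation genes held these letters. Each site is given 5′ to 3′ on the strand of its gene with 10 flanking bases, the fixed letters of the element in capitals. In Calr, Creld2 and the second site of Hsp90b1 the element runs against the gene and so begins with CGTGG.
Hspa5, chr2:34772015-34772053, plus strand: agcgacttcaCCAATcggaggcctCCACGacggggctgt
Hsp90b1 first site, chr10:86705628-86705666, minus strand: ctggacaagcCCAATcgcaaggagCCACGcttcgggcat
Hsp90b1 second site, chr10:86705523-86705561, minus strand: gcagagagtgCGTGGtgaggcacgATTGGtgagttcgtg
Dnajc3, chr14:118937817-118937855, plus strand: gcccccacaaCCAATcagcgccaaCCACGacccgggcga
Pdia6, chr12:17266481-17266519, plus strand: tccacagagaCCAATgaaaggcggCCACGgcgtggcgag
Calr, chr8:84847065-84847103, minus strand: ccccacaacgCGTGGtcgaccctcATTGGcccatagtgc
Canx, chr11:50325790-50325828, minus strand: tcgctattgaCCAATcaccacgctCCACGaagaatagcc
Creld2, chr15:88819510-88819548, plus strand: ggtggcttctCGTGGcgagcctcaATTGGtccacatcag

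The related element ERSE-II, searched on both strands as ATTGG, any 1 base, then CCACG, was present in 12 of all windows (0.0365%) and in 2 of the list, Herpud1 and Dnajb11. The Herpud1 promoter is shown because it held ERSE-II together with a further site, described next. It was picked with the positive difference of its gene, given below, already known. The same window was the only one of the 26 with the composite site at which ATF4 is known to bind with C/EBP proteins. That site was searched as TTNCATCA on both strands and was present in 3.97% of all windows, a share near 1 in 26. The capitals of the first line mark ERSE-II and those of the second the composite site.
Herpud1 ERSE-II, chr8:94386367-94386397, plus strand: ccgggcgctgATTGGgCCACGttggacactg
Herpud1 composite site, chr8:94386307-94386334, plus strand: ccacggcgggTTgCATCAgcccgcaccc

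The 250 bases before the start of Hsp90b1 and of P4ha2 are given in whole, since these genes had the lowest unadjusted p-value among the chaperones and among the collagen enzymes. Capitals mark the 2 ERSE sites in Hsp90b1 and, in P4ha2, the core ACGTG to which hypoxia-inducible factors are known to bind. That core was in 5 of 8 windows of collagen enzymes (P4ha1, P4ha2, Plod3, Ppib and Serpinh1), in 6 of 13 windows of general chaperones and in 19.6% of all windows. It was searched on both strands, and in Herpud1 it overlaps the ERSE-II site on the other strand. Such matches are descriptions of letters and not evidence of binding.
Hsp90b1, chr10:86705445-86705694, minus strand: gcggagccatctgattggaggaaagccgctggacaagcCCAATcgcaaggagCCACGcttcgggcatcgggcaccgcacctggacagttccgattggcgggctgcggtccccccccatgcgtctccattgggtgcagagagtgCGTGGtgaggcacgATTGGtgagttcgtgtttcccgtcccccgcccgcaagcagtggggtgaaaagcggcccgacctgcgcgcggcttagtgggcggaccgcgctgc
P4ha2, chr11:54100674-54100923, plus strand: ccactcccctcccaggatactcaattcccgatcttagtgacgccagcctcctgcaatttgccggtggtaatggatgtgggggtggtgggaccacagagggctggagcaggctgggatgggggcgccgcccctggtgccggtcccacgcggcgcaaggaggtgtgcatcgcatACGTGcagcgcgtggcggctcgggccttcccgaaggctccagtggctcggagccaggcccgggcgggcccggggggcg

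Signals are log2 background-subtracted intensities scaled so that 0 is the 75th percentile of the array. Differences are CreTW minus Cre on this scale with their SE (n = 4 arrays in each group). Their p-values come from limma, adjusted by Benjamini-Hochberg over the 23105 features. The share of probes well above background ranged from 45.4% to 57.9%, and no spot was saturated. Arrays of the same genotype correlated at 0.981 to 0.989 and arrays of different genotypes at 0.972 to 0.988, over all features. Twnk, the gene of Twinkle, had log2 signals of -2.58, -2.64, -1.85 and -1.89 in CreTW, against -2.26, -2.28, -2.16 and -1.85 in Cre. The groups overlapped, and whether the probe can see the transgene is unknown, so the labels are not checked by it. Probes differ in how strongly they bind, so signals are compared between arrays and not between genes.

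No gene of the list passed the test at adjusted p 0.05, where 0.346% of all features did. The differences were small: 30 of the 31 were under 0.4 in size, and 24 were negative. Their median was -0.18, against -0.008 over all features. Before adjustment, 11 genes had p under 0.05, where 10.7% of all features did. Of these, 9 were lower in CreTW (29.0% of the list, against 4.8% of all features) and 2 were higher (against 5.93%). In 6 genes every CreTW array lay below every Cre array, 19.4% of the list against 2.81% of all features, and in 1 every CreTW array lay above (against 3.89%). The upper limit of the 95% interval, not adjusted for the number of genes, was under 0.5 for all 31 and under 0 for 9.

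**Figure D1:**
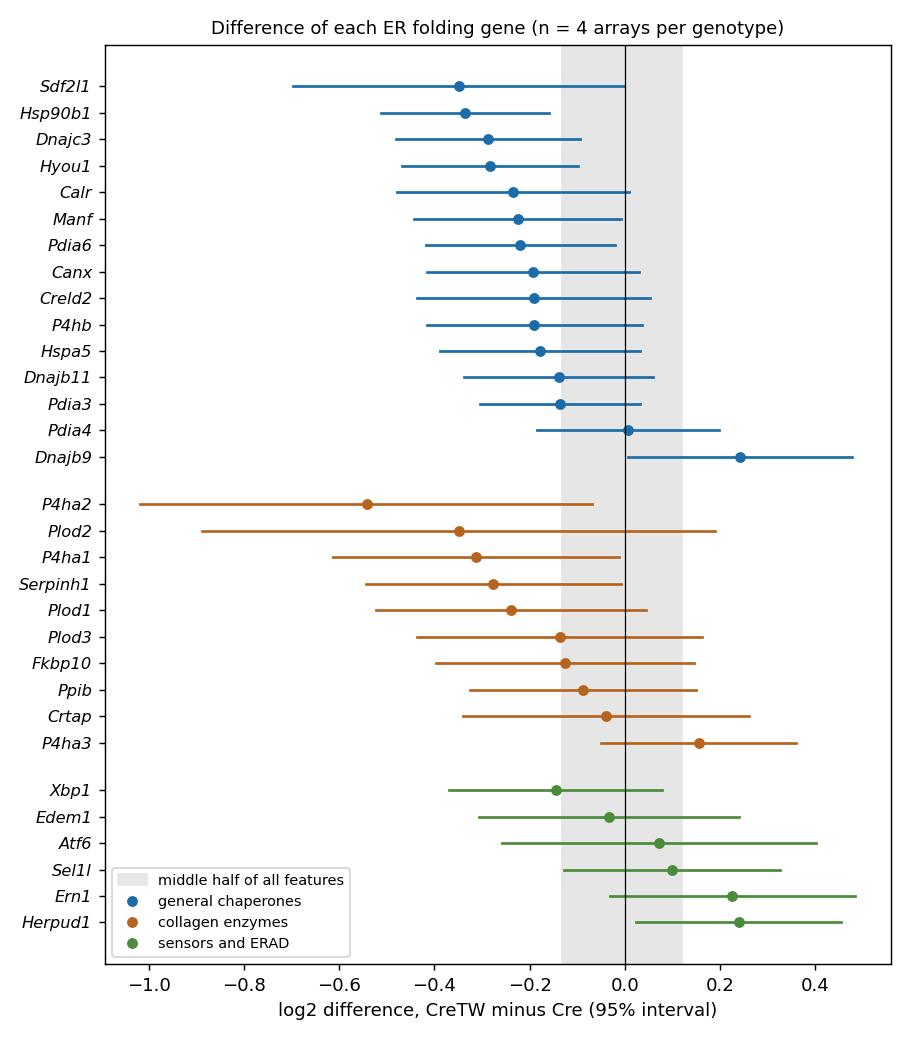
Log2 difference (CreTW minus Cre) of the 31 ER folding genes by role, with 95% intervals from limma (n = 4 arrays per genotype); the grey band is the interquartile range of all 23105 features, from -0.13 to 0.12. Of the 15 general chaperones 13 and of the 10 collagen enzymes 9 lie left of 0, and 2 of the 6 sensors and degradation genes do.

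Of the 15 general chaperones, 13 had negative differences, where 51.6% of all features did, with a median of -0.19 and an interquartile range of -0.26 to -0.16. At unadjusted p under 0.05, 6 were lower (against 4.8% of all features) and 1 was higher (against 5.93%). The 2 that were not negative were Pdia4 (ERp72, a disulfide isomerase) at 0.01 ± 0.08 and Dnajb9, described below. Negative differences were not particular to this group: 13 of 15 chondrocyte markers, described below, were negative as well.

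Hsp90b1 encodes GRP94, the ER form of HSP90. It had log2 signals of 5.73, 5.70, 5.68 and 5.78 in CreTW, against 5.94, 6.11, 6.10 and 6.08 in Cre. The difference was -0.34 ± 0.08, a ratio of 0.793, with adjusted p = 0.193. Every CreTW array lay below every Cre array, with a gap of more than the whole range of the CreTW values. Its interval of -0.51 to -0.16 was the farthest from 0 in the list.

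Hspa5 encodes BiP, the ER HSP70 and the usual marker of the unfolded protein response. It had 6.10, 6.06, 6.35 and 6.14 in CreTW, against 6.26, 6.29, 6.40 and 6.41 in Cre. The difference was -0.18 ± 0.09 (adjusted p = 0.539), with an interval of -0.39 to 0.03. CreTW replicate 3 lay among the Cre arrays, and the other 3 CreTW arrays lay below all of them. The other 2 probes of Hspa5 gave -0.22 and -0.16.

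The helpers of BiP were split. Dnajc3 (p58IPK), a co-chaperone of BiP, had 0.54, 0.51, 0.34 and 0.48 in CreTW, against 0.74, 0.75, 0.87 and 0.66 in Cre (-0.29 ± 0.09, adjusted p = 0.278). Hyou1 (GRP170), which exchanges the nucleotide of BiP, had -1.44, -1.58, -1.39 and -1.50 in CreTW, against -1.16, -1.11, -1.23 and -1.28 in Cre (-0.28 ± 0.08, adjusted p = 0.272). In both genes the genotypes did not overlap, but for Hyou1 the 2 other probes, both dimmer, gave 0.01 and 0.20, so its difference rests on 1 probe. It was the 1 gene of 13 with several probes whose probes differed in sign.

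Dnajb9 (ERdj4), a co-chaperone of BiP that is a target of XBP1, was the exception among the general chaperones. It had 0.29, 0.29, 0.67 and 0.44 in CreTW, against 0.09, 0.22, 0.19 and 0.23 in Cre. All CreTW arrays lay above all Cre arrays, with a difference of 0.24 ± 0.10 (adjusted p = 0.453), while a second, dimmer probe gave 0.03. Dnajb11 (ERdj3), another co-chaperone, was at -0.14 ± 0.09, and its second probe gave -0.23. Sdf2l1, a partner of ERdj3 that is induced in the unfolded protein response, had 0.15, 0.15, 0.29 and 0.42 in CreTW, against 0.47, 0.87, 0.82 and 0.24 in Cre (-0.35 ± 0.15, adjusted p = 0.465). Here the groups overlapped through Cre replicate 4, which lay below CreTW replicates 3 and 4.

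Manf and Creld2 are induced by ER stress and partly secreted, and are known to rise in cartilage disorders in which a mutant matrix protein is held in the ER. Manf had 2.58, 2.56, 2.69 and 2.56 in CreTW, against 2.66, 2.73, 2.96 and 2.94 in Cre (-0.22 ± 0.10, adjusted p = 0.451). Only CreTW replicate 3 and Cre replicate 1 overlapped, and the second probe gave -0.27. Creld2 lay between 4.50 and 4.65 in CreTW and between 4.54 and 4.98 in Cre (-0.19 ± 0.11, adjusted p = 0.568). The upper 95% limits of the difference were -0.007 for Manf and 0.05 for Creld2.

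The disulfide isomerases differed among themselves in size. Pdia6 (P5) had 6.44, 6.40, 6.40 and 6.38 in CreTW, against 6.53, 6.67, 6.51 and 6.79 in Cre (-0.22 ± 0.09, adjusted p = 0.43). Pdia3 (ERp57), which works with calnexin and calreticulin, had 3.79, 3.68, 3.75 and 3.75 in CreTW, against 3.83, 3.86, 3.87 and 3.96 in Cre (-0.14 ± 0.07, adjusted p = 0.555). Both had every CreTW array below every Cre array, though for Pdia3 the nearest arrays were 3.79 and 3.83. A second, dimmer probe of Pdia3 gave -0.28. P4hb is the classic disulfide isomerase and also the beta subunit of prolyl 4-hydroxylase. It had 4.94, 4.81, 4.76 and 4.88 in CreTW, against 4.95, 5.05, 4.89 and 5.25 in Cre (-0.19 ± 0.10, adjusted p = 0.542), with 1 CreTW array above 1 Cre array. The lectin chaperones were alike in size, Calr at -0.24 ± 0.11 and Canx at -0.19 ± 0.10, and a second probe of Canx gave -0.02.

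**Figure D2:**
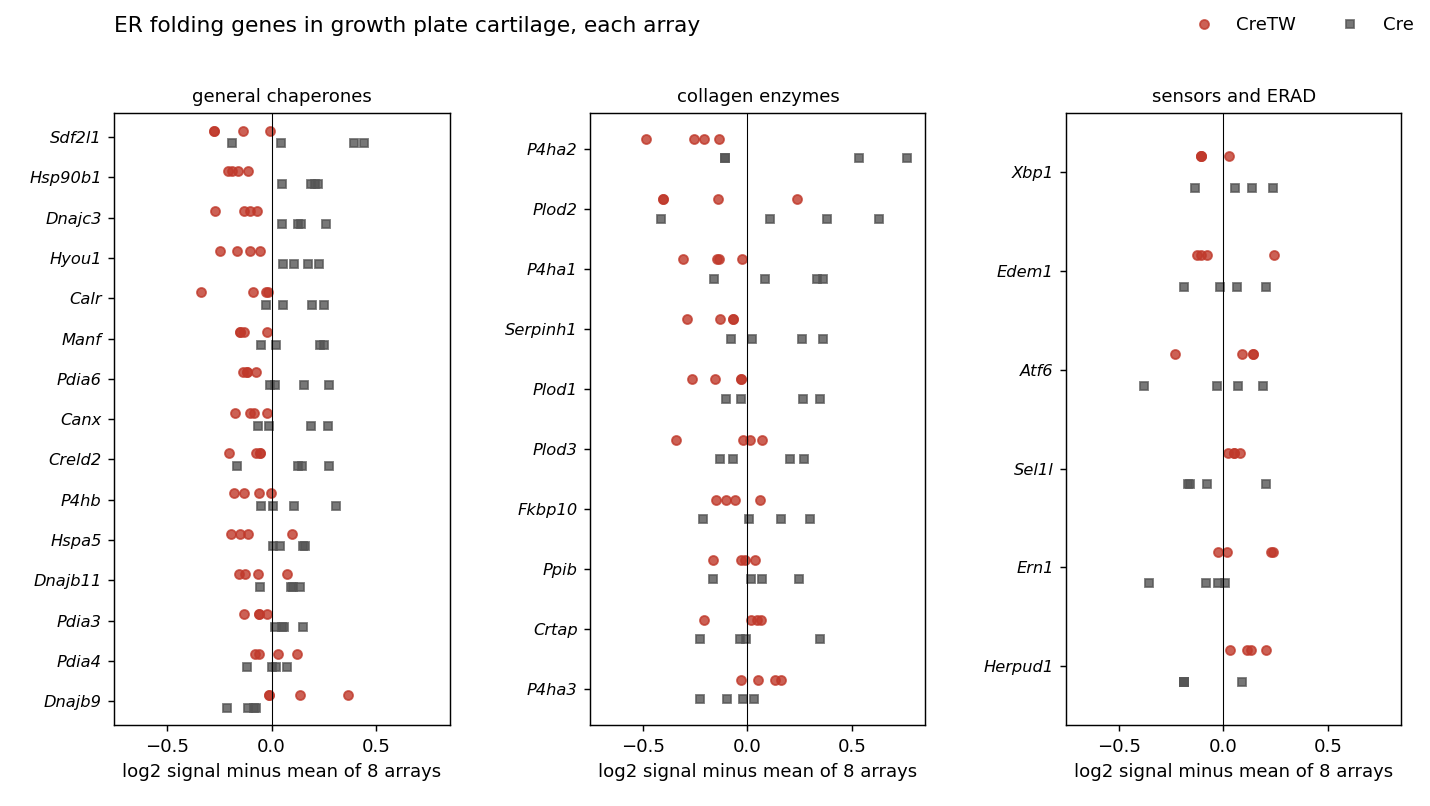
Log2 signal of each gene on each array minus the mean of its 8 arrays, by role; red circles are the 4 CreTW arrays and grey squares the 4 Cre arrays. The circles lie left of the squares in Hsp90b1, Dnajc3, Hyou1, Pdia6 and Pdia3, and the Cre squares of P4ha2 spread widely, from 4.90 to 5.77 before centring.

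The 7 general chaperones with an ERSE in their window all had negative differences (median -0.22). They ranged from -0.34 for Hsp90b1, which has the element at 2 places, to -0.18 for Hspa5. The other 6 chaperones with a window ranged from -0.35 (Sdf2l1) to 0.24 (Dnajb9), so negative values were also found without these letters. Herpud1, with ERSE-II and the composite site, lay on the positive side, and Dnajb11, with ERSE-II alone, on the negative side. Dnajb9, with none of these elements, was also positive. Whether any element bears on a difference was not tested.

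Collagen-modifying enzymes and collagen chaperones had 9 of 10 negative differences, with a median of -0.19, but differed more between arrays of 1 genotype. At unadjusted p under 0.05, 3 were lower (P4ha2, P4ha1 and Serpinh1), against 4.8% of all features, and 0 higher. Only P4ha2 had genotypes that did not overlap.

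Prolyl 4-hydroxylase, which makes the hydroxyproline that stabilises the collagen triple helix, is built from an alpha subunit and P4hb. The alpha subunit P4ha2, the main one in cartilage, had 4.75, 4.87, 4.52 and 4.80 in CreTW, against 4.90, 5.54, 4.90 and 5.77 in Cre. Its difference was the largest of the list at -0.54 ± 0.21 (a ratio of 0.687, adjusted p = 0.411). It rested mostly on Cre replicates 2 and 4, while replicates 1 and 3 lay just above the highest CreTW array. P4ha1, the most widely expressed alpha subunit, had 1.94, 2.06, 1.78 and 1.95 in CreTW, against 1.93, 2.45, 2.17 and 2.42 in Cre (-0.31 ± 0.13, adjusted p = 0.448), and its second probe gave -0.32. Cre replicates 2 and 4 were again the highest arrays, and Cre replicate 1 lay among the CreTW arrays. P4ha3, the third alpha subunit, was the only member of this group with a positive difference, 0.15 ± 0.09 (adjusted p = 0.58).

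Serpinh1 encodes HSP47, the chaperone of the collagen triple helix. It had 6.94, 6.94, 6.88 and 6.72 in CreTW, against 7.03, 7.37, 6.93 and 7.27 in Cre (-0.28 ± 0.12, adjusted p = 0.452). Cre replicate 3 lay within the range of CreTW, and replicates 2 and 4 were again the highest. Fkbp10 (FKBP65, a prolyl isomerase of procollagen) was at -0.13 ± 0.12. Ppib (cyclophilin B) and Crtap, which act together in prolyl 3-hydroxylation, were at -0.09 ± 0.10 and -0.04 ± 0.13, and the sign of Crtap was positive without Cre replicate 4 (0.07).

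The lysyl hydroxylases modify the lysines at which collagens are glycosylated and cross-linked. Plod2, which acts on the ends of the chains where cross-links form, had 3.54, 3.92, 3.28 and 3.28 in CreTW, against 3.27, 4.06, 3.79 and 4.31 in Cre. Cre replicates 2 and 4 lay above every CreTW array and Cre replicate 1 just below them all, and the difference of -0.35 ± 0.24 (adjusted p = 0.627) was within the spread. Plod1 was at -0.24 ± 0.12 and Plod3 at -0.14 ± 0.13 on both of its probes.

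The sensors and degradation genes had a median difference of 0.09, with 4 of 6 positive, 1 higher at unadjusted p under 0.05 (against 5.93% of all features) and 0 lower. No genotypes were separated in this group. Other genes of ER-associated degradation, given below, were mostly negative (20 of 24).

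Herpud1, an ER membrane protein of the degradation machinery, was the 1 gene of the group higher at unadjusted p under 0.05. It had 3.42, 3.49, 3.40 and 3.32 in CreTW, against 3.10, 3.10, 3.10 and 3.38 in Cre (0.24 ± 0.09, a ratio of 1.18, adjusted p = 0.426). Cre replicates 1 to 3 were almost equal and below every CreTW array, and Cre replicate 4 stood within the CreTW range. The second probe gave 0.14. Sel1l, a subunit of the same ubiquitin ligase complex, was at 0.10 ± 0.10 (0.26 on a dimmer probe), and Edem1, which marks misfolded glycoproteins for removal, at -0.03 ± 0.12 (-0.28 on a second, dimmer probe).

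Xbp1, the transcription factor whose mRNA IRE1 splices, had 5.18, 5.18, 5.31 and 5.18 in CreTW, against 5.15, 5.42, 5.34 and 5.52 in Cre. The difference was -0.15 ± 0.10 (adjusted p = 0.625) with overlapping groups, and its other probes gave -0.21 and -0.19. These probes are not known to tell the spliced form from the unspliced one, so splicing is not measured here. Ern1, the gene of IRE1, was at 0.23 ± 0.11 (adjusted p = 0.524) and Atf6 at 0.07 ± 0.14.

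**Figure D3:**
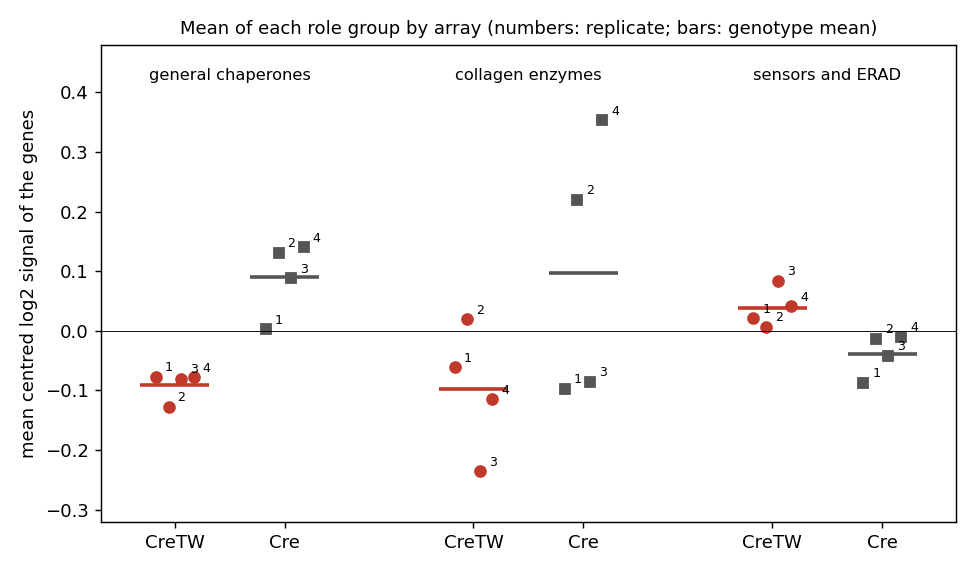
Mean over the genes of each role group of the log2 signal minus the gene's mean, by array; numbers are replicates and bars the mean of 4 arrays. General chaperones lie between -0.13 and -0.08 in CreTW and between 0.00 and 0.14 in Cre, collagen enzymes overlap, and sensors lie between 0.01 and 0.08 in CreTW and between -0.09 and -0.01 in Cre.

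The groups also differed in how their genes moved from array to array. After removal of each genotype's mean, pairs of collagen enzymes had a mean correlation of 0.684 over the 8 arrays, pairs of general chaperones 0.15 and pairs of sensors and degradation genes -0.08, against 0.024 for pairs of all features. These pairs share the same 8 arrays, and the values are descriptions. The mean centred log2 signal of the collagen enzymes was -0.061, 0.02, -0.235 and -0.115 on CreTW replicates 1 to 4, against -0.097, 0.22, -0.085 and 0.353 on Cre replicates 1 to 4. It separated Cre replicates 2 and 4 from the other 6 arrays more than it separated the genotypes. That of the general chaperones was -0.077, -0.127, -0.08 and -0.078 in CreTW, against 0.003, 0.131, 0.088 and 0.14 in Cre.

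The tissue carried the markers of its label, all 15 of the chondrocyte list, including Col2a1, Acan and Sox9. Of these 15, 13 had negative differences (median -0.16), the same count as among the 15 general chaperones. At unadjusted p under 0.05, 0 of the markers were lower and 0 higher. The chondrocyte score, the mean centred log2 signal of that list, was 0.101, 0.174, -0.457 and -0.1 on CreTW replicates 1 to 4, against -0.344, 0.155, -0.121 and 0.591 on Cre replicates 1 to 4. Its summed signal, in multiples of the 75th percentile, was 2562 to 3544 in CreTW and 2670 to 4576 in Cre. Collagen enzymes were highest where this score was highest among the Cre arrays and lowest on CreTW replicate 3, where it was lowest. With the chondrocyte score in the fit, the median of the collagen enzymes was -0.13 and that of the general chaperones -0.19, and 7 genes were lower at unadjusted p under 0.05 (8.86% of all features in that fit).

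**Figure D4:**
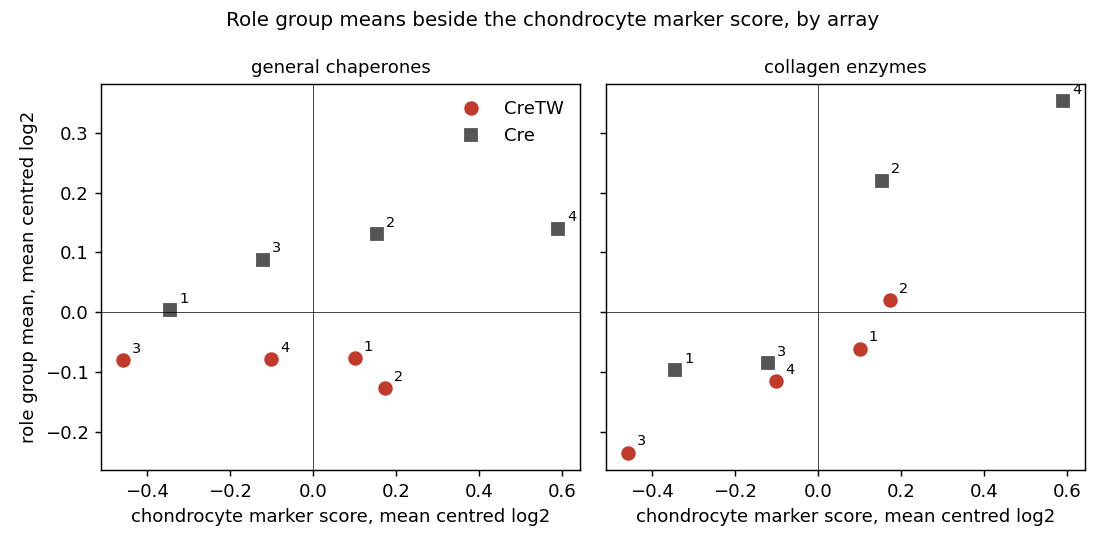
Mean centred log2 signal of the general chaperones (left) and of the collagen enzymes (right) beside the chondrocyte marker score of the same array; red circles are CreTW, grey squares Cre, and numbers are replicates. Collagen enzymes range from CreTW replicate 3 (-0.235) to Cre replicate 4 (0.353). At similar scores CreTW replicate 2 (0.02) lies below Cre replicate 2 (0.22), while CreTW replicate 4 (-0.115) lies near Cre replicate 3 (-0.085). General chaperones lie in 2 bands, CreTW below Cre.

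Markers of other cells also differed between the arrays. Skeletal muscle markers (23 of 24 measured, all but Ckmt2) had a summed signal of 69.3 to 721 in CreTW and 52.5 to 125 in Cre. All 23 had positive differences (median 3.365), and 20 were higher at unadjusted p under 0.05 (against 5.93% of all features). In 3 of the 23 every CreTW array lay above every Cre array (against 3.89% of all features). Markers of perichondrium, tendon and fibroblasts (16 of 16) summed to 2169 to 2669 in CreTW and 2011 to 2518 in Cre. Of these 16, 6 were higher on every CreTW array than on every Cre array (against 3.89% of all features). Osteoclast markers (12 of 13, all but Calcr) summed to 302 to 1069 in CreTW and 452 to 1244 in Cre, and erythroid markers (6 of 10) to 338 to 811 in CreTW and 563 to 977 in Cre. All 12 osteoclast markers and all 6 erythroid markers had negative differences (medians -0.821 and -0.632), and 0 of them had separated genotypes. Osteoblast (12 of 13, without Sost), marrow leukocyte (13 of 15, without Cd79a and Ly6g) and endothelial markers (10 of 10) overlapped between the genotypes in their sums, which were 1837 to 2416, 39.7 to 83.0 and 24.1 to 41.2 in CreTW, against 1873 to 2352, 33.7 to 155 and 25.3 to 40.3 in Cre.

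With the score of the muscle list in the fit, the median of the general chaperones was -0.15 and that of the collagen enzymes -0.06, with 1 gene of the list lower at unadjusted p under 0.05 (1.45% of all features in that fit). With the score of the fibroblast list the medians were -0.19 and -0.11, with 0 genes lower (1.14% of all features). The fibroblast score itself separated the genotypes, from 0.129 to 0.363 in CreTW and from -0.531 to 0.032 in Cre. The muscle score overlapped only through CreTW replicate 1 (-1.011) and Cre replicate 3 (0.237). These fits therefore cannot tell the score from the genotype. The count of 9 was 3 without CreTW replicate 1 (4.48% of all features in that fit). It was 5 without CreTW replicate 2 (3.41%), CreTW replicate 3 (4.96%) or CreTW replicate 4 (4.19%). Without Cre replicate 1 it was 11 (4.48%) and without Cre replicate 3 it was 9 (4.43%). Without Cre replicate 2 (2.75%) or Cre replicate 4 (7.46%) it was 4. The slide carried the arrays in 2 rows, replicates 1 and 2 of both genotypes in row 1 and replicates 3 and 4 in row 2. The median of the general chaperones was -0.18 within row 1 and -0.25 within row 2, and that of the collagen enzymes -0.075 within row 1 and -0.24 within row 2.

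Other genes of the secretory pathway, in lists made by function with earlier results of these data known, were set beside these. Of 30 other ER folding genes 0 passed over all features, 5 were lower at unadjusted p under 0.05 (against 4.8% of all features) and 0 higher, with a median of -0.03. Differences were negative for 21 of these 30 (70.0%, against 51.6% of all features). The lowest p-values among them were those of Pdia5, a disulfide isomerase (-0.46 ± 0.10, adjusted p = 0.193), Erp29 (-0.24 ± 0.09), Txndc11 (-0.28 ± 0.10) and Creld1 (-0.40 ± 0.15). Pdia5 had 1.41, 1.20, 1.24 and 1.35 in CreTW, against 1.64, 1.90, 1.58 and 1.91 in Cre, groups well apart from each other. Of 33 genes of the translocon and of N-glycosylation 0 passed, 6 were lower at unadjusted p (against 4.8%) and 0 higher (median -0.13), among them Srprb, a subunit of the signal recognition particle receptor (-0.41 ± 0.10, adjusted p = 0.209), Ganab, a glucosidase (-0.33 ± 0.10), Spcs2, a signal peptidase subunit (-0.28 ± 0.10), and Rpn1, a subunit of the oligosaccharyltransferase (-0.27 ± 0.10). In 6 of the 33, these 4 among them, every CreTW array lay below every Cre array (against 2.81% of all features). Differences were negative for 24 of the 33 (72.7%).

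Of 24 other genes of ER-associated degradation 0 passed, 2 were lower at unadjusted p and 0 higher (median -0.12), a share near the 4.8% of all features. Differences were negative for 20 of these 24 (83.3%, against 51.6% of all features), while 2 of the 6 sensors and degradation genes above were negative. Syvn1, the ubiquitin ligase HRD1, was at -0.27 ± 0.09, Rnf5 at -0.29 ± 0.12, Derl2 at -0.21 ± 0.11 and Vcp at -0.16 ± 0.09. Of 28 other genes of collagen maturation 0 passed, 2 were lower at unadjusted p and 0 higher (median -0.02), again near 4.8%. They were the procollagen proteinases Bmp1 (-0.25 ± 0.09) and Adamts14 (-0.26 ± 0.11), and the next by p were the oxidase Loxl4 (0.40 ± 0.20) and the retrieval receptor Kdelr1 (-0.17 ± 0.09).

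The collagen chains, the cargo of these enzymes, were split, with 9 of 18 negative. None passed, 5 were higher at unadjusted p under 0.05 (against 5.93% of all features) and 0 lower (median 0.09). The 4 with the lowest p-values, Col6a3 (0.46 ± 0.11), Col5a1 (0.44 ± 0.14), Col3a1 (0.39 ± 0.14) and Col6a1 (0.39 ± 0.16), are chains of fibrous tissue and of the pericellular matrix, and Col3a1 is itself in the fibroblast marker list described above. The negative chains, named after their values were seen, included the cartilage chains Col27a1 (-0.25 ± 0.20), Col11a2 (-0.24 ± 0.23), Col9a3 (-0.22 ± 0.24), Col9a2 (-0.17 ± 0.26), Col11a1 (-0.16 ± 0.19), Col9a1 (-0.09 ± 0.22) and Col2a1 (-0.05 ± 0.13). All 7 were highest on Cre replicate 4, as the mean of the collagen enzymes was, and in all 7 the genotypes overlapped. All of them but Col27a1 are in the chondrocyte marker list, whose score was also highest on that array. The other negative chains, Col1a1 (-0.051 ± 0.117) and Col1a2 (-0.022 ± 0.115), are in the fibroblast marker list. Col10a1, a chain of growth plate cartilage, was positive (0.195 ± 0.16).

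**Figure D5:**
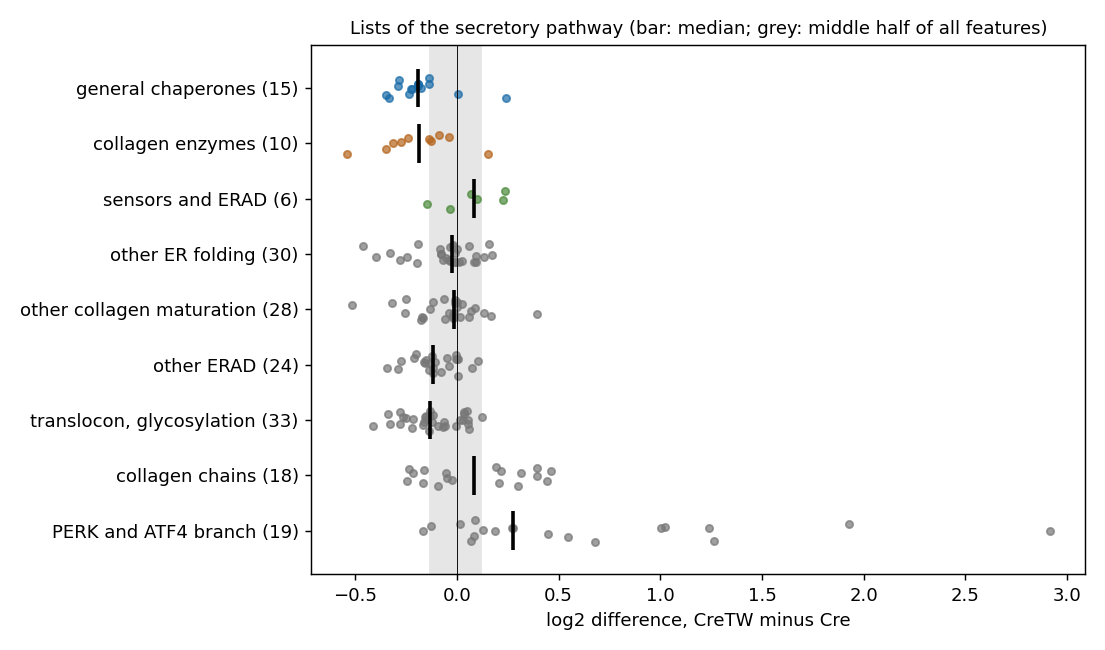
Log2 difference (CreTW minus Cre) of each measured gene in the 3 role groups and in 6 other lists of the secretory pathway, with the number measured in brackets; bars are medians and the grey band is the interquartile range of all features. The general chaperones and collagen enzymes centre on -0.19, and the PERK and ATF4 branch reaches 2.92.

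Genes of the PERK and ATF4 branch stood on the other side. Of 19 measured, 6 rose over all features and 0 fell, where 0.229% of all features rose. Since this list too was made with earlier results of these data known, the count is a description. Trib3 had 3.27, 3.21, 3.31 and 2.73 in CreTW, against -0.14, 0.39, 0.18 and 0.42 in Cre (2.92 ± 0.17, adjusted p = 0.00078), and Ddit3 (CHOP) had 0.10, 0.19, 0.03 and 0.26 in CreTW, against -1.01, -0.85, -0.83 and -0.83 in Cre (1.02 ± 0.09, adjusted p = 0.00344). Atf5 (1.24 ± 0.11) and Asns (1.27 ± 0.13) were next by p. Differences were positive for 17 of the 19. Eif2ak3, the gene of PERK, was at -0.17 ± 0.11 (adjusted p = 0.618) and Atf4 at 0.27 ± 0.10 (adjusted p = 0.368). Whether PERK acted on the genes that rose was not tested. The highest difference among the 31 folding genes was 0.24 (Dnajb9).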

How the data were processed

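The 8 scanner files give a background-subtracted intensity per spot, deposited by the authors. Per the file headers, Feature Extraction 11.5.1.1 was used, with a design on build mm9. The deposited value table holds log2 values that the authors made with GeneSpring 14.9, per the labels. Each of its columns equalled the log2 processed intensity minus a constant close to that array's 75th percentile (r = 1 on all 8 arrays).

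Here, non-control spots of a probe were averaged without outlier flags, taken to log2, and the 75th percentile over 56605 probes was subtracted. Probes had to be well above background on 4 or more of the 8 arrays. Symbols came from RefSeq transcripts (GRCm38.p6, names and promoters only). For each gene the probe with the highest mean was used. CreTW and Cre were compared with limma 3.58.1 in R 4.3.3, on all 8 arrays without covariates, two-sided, with Benjamini-Hochberg adjustment at 0.05, and the fit was tested on simulated data. The number of arrays limits the precision. The labels name 4 mice per genotype. Values on each array are given for genes with unadjusted p under 0.05, for genes with separated genotypes and for 7 fixed genes. Up to 4 genes by p are named from each pathway list. Further collagen chains, Eif2ak3 and Atf4 were named after their values were seen. Genes and lists were chosen with earlier results of these data known.

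Alternatives were the array median, quantile normalization, normexp with an offset of 50, the deposited table, 2 other filters and the mean of a gene's probes. Normexp was run on the median signal, since the scanner data hold no mean signal. Further alternatives were blocks for replicate number and slide row, the muscle score as a covariate, each row alone and each array left out. The scores of the 7 other marker lists as covariates were added after seeing the data.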

Additional observations from a re-analysis of the deposited data

Results flagged for a closer look

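In 8 of 62 groups of 4 arrays (31 genes in 2 genotypes) the highest or lowest array stood apart from the other 3 by more than Dixon's 95% criterion; chance gives about 1 in 20 such groups. CreTW replicate 3 was the array in 5 of them. It was low for Creld2 (4.50, others 4.63 to 4.65) and Crtap (5.45, others 5.67 to 5.72), and high for Manf (2.69, others 2.56 to 2.58), Xbp1 (5.31, others 5.18) and Edem1 (1.03, others 0.66 to 0.71). CreTW replicate 2 was low for Atf6 (0.07, others 0.39 to 0.44). Among the Cre arrays, replicate 1 was low for Hsp90b1 (5.94, others 6.08 to 6.11) and replicate 4 high for Herpud1 (3.38, others 3.10).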

How the results depend on the processing

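No gene of the list passed at adjusted p 0.05 under any alternative run; the lowest adjusted p was 0.107 (Hsp90b1, chondrocyte score as covariate). The medians of general chaperones (-0.25 to -0.15) and collagen enzymes (-0.31 to -0.06) were negative under all of them. The count of 9 genes lower at unadjusted p is given here with the share of all features lower in the same fit. It was 4 with dim probes kept (1.93%), 5 with the slide row as block (4.13%), 2 within row 1 (7.71%) and 1 within row 2 (2.49%). It was 1 with the muscle score (1.45%), 0 with the fibroblast score (1.14%) and 5 with the erythroid score (3.16%). Without single arrays it was 3 to 11 (shares of 2.75% to 7.46%). The count of 2 higher was 0 with the array median, with dim probes kept, with the mean of a gene's probes, with the replicate block, within row 2 and with the muscle, fibroblast or erythroid score, 1 within row 1 and with the osteoblast or marrow score, and 0 to 2 without single arrays. Replicate numbers did not pair the arrays: same-numbered deviations correlated at -0.012, -0.1, 0.31 and -0.03, and 1 of 4 CreTW arrays correlated best with its own number. With the replicate block 7 were lower (4.38% of all features), no call of the list at adjusted p changed, and 12 of all features were called. Without the block 80 were, against 4, 1, 18 and 136 with the muscle, fibroblast, erythroid and chondrocyte scores, 53 with the slide row as block, 27 with dim probes kept, 0 within either row and 42 to 75 without single arrays. The median of sensors and degradation genes was 0.127 with the mean of probes, 0.13 with the muscle score, 0.035 within row 1, 0.125 with the osteoclast score and 0.067 to 0.126 without single arrays.

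Signs turned for these genes, none of them past adjusted p 0.05 (Plod2 and Sdf2l1, both at -0.35 as reported, among them): Pdia4 with the array median (-0.005), normexp (-0.025) and within row 2 (-0.053); with the muscle score Ppib (0.079), Crtap (0.141) and Plod3 (0.037); within row 1 Crtap (0.061), Plod2 (0.07) and Atf6 (-0.068); with the fibroblast score Sdf2l1 (0.01) and Plod3 (0.012); Sel1l with the osteoclast score (-0.004); Crtap with the chondrocyte score (0.022). Edem1 was positive within row 2 (0.059) and with the fibroblast (0.004), osteoclast (0.117), osteoblast (0.049), erythroid (0.022), marrow (0.008) and endothelial scores (0.041). Without single arrays, Pdia4 lay between -0.032 and 0.033, Edem1 between -0.119 and 0.029, Crtap between -0.121 and 0.069 and Atf6 between -0.043 and 0.161. The causes were not tested.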
